A study of Mus musculus with 24 samples.

Results

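The let-7 family was followed through mammary tumor progression in PyMT mice. Its members are the 8 miRNAs let-7a, let-7b, let-7c, let-7d, let-7e, let-7f, let-7g and let-7i, taken by name from the 510 miRNAs of the deposited count table. Tumors came from F1 female mice of FVB strain heterozygous for MMTV-PyMT, a transgene in which the mouse mammary tumor virus promoter drives the polyoma virus middle T antigen in mammary epithelium. Normal mammary glands came from age-matched FVB females without the transgene. Small RNA of 3 mice per genotype was sequenced at weeks 6, 8, 10 and 12, called hyperplasia, adenoma, early carcinoma and late carcinoma in tumor, which gave 24 libraries in 8 groups. By the study's account, the hyperplasia and adenoma tissue still held normal gland cells. Each library is whole tissue, so that fewer cells of a type and less of a miRNA per cell cannot be told apart.

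let-7 is an old and highly conserved miRNA family that accumulates as cells leave the embryonic state and differentiate. A mature miRNA guides the silencing complex to messenger RNAs that pair with its seed, bases 2 to 8, and reduces their output. Known let-7 targets include the Ras genes, Myc and Hmga2, and the family is usually described as tumor suppressive. LIN28 binds let-7 precursors and blocks their maturation.

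The mature sequences are shown because the members share the seed and differ by few bases outside it, which matters for what each count stands for. They are the RefSeq entries that go with the GRCm38.p6 annotation, matched by name for 8 of 8 members, and capitals mark the seed.
let-7a: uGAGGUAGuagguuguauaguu
let-7b: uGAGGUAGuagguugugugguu
let-7c: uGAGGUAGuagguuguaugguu
let-7d: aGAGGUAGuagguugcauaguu
let-7e: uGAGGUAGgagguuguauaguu
let-7f: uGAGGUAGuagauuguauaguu
let-7g: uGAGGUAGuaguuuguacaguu
let-7i: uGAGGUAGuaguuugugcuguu

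Each member is 22 bases long. With let-7a as the reference and positions counted from 1 at the 5′ end, let-7c differs by A19G, let-7e by U9G and let-7f by G12A. let-7b carries A17G and A19G, so that let-7b and let-7c share the base at position 19. let-7d carries U1A and U16C, let-7g carries G12U and U18C, and let-7i carries G12U, A17G, U18C and A19U. Of the 28 pairs of members, 4 differ at 1 base and 8 at 2 bases. How many mismatches the alignment allowed is not given in the sources used here, so the counts of members 1 base apart are uncertain where reads could be split between them.

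The seed GAGGUAG occurs in 11 of the 1679 mature miRNAs of the RefSeq table, the 8 members and 3 relatives. Of these relatives, let-7k has no row among the counts, miR-1961 had 7 counts in all libraries together, and miR-98 is listed at 0 in all 24. miR-202, which belongs to the wider family by descent, had 2 counts. miR-98 lies on chromosome X, and all 55 miRNAs of the table found only on that chromosome are listed at 0, so that the 0 of miR-98 says nothing about its level.

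The genes of the members form clusters, located here by exact match of the RefSeq hairpins to the mouse assembly NCBIM37 (mm9). Mirlet7a-1 (chromosome 13, 48633548 to 48633641), Mirlet7f-1 (48633198 to 48633286) and Mirlet7d (48631381 to 48631483) lie on the minus strand with 261 and 1714 bases between them. Mirlet7c-2 (chromosome 15, 85537033 to 85537127) and Mirlet7b (85537749 to 85537833) lie on the plus strand, 621 bases apart. No annotated host gene covers either cluster.

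The other copies sit beside miR-99/100 and miR-125 genes. Mirlet7a-2 (chromosome 9, 41344799 to 41344894) lies in an intron of the lincRNA D230004N17Rik, 5211 bases after Mir100 and 45114 bases before Mir125b-1. Mirlet7c-1 (chromosome 16, 77599902 to 77599995) lies 656 bases after Mir99a and 46522 bases before Mir125b-2, within an intron of Gm11146 on the opposite strand. Mirlet7e (chromosome 17, 17967316 to 17967408) lies between Mir99b and Mir125a, 94 and 367 bases away. Mirlet7g (chromosome 9, 106081171 to 106081258) is in an intron of Wdr82, and Mirlet7i (chromosome 10, 122422696 to 122422780) stands alone. Mirlet7f-2 (chromosome X, 148346889 to 148346971) and Mir98 share an intron of Huwe1. The rows of the table name no arm of the hairpin, so that reads of the opposite arm may be included. Reads of the mature miRNA do not tell let-7a-1 from let-7a-2, let-7c-1 from let-7c-2, or let-7f-1 from let-7f-2.

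Normal libraries had total counts of 1626022 to 3931375, and tumor libraries were shallower, with 1032241 to 2213972. The 8 members together held between 99026 and 221799 counts in a normal library and between 36389 and 102287 in a tumor library, and the least counted value of any member in any library was 1362. Counting error is therefore small beside the spread between mice, and the 3 mice per group limit the precision. Levels are given as CPM, counts scaled to a common library size with the TMM factors of edgeR. Differences were tested with edgeR's quasi-likelihood test on the 237 miRNAs that passed its filter on low counts, all 8 members among them, with Benjamini-Hochberg adjustment over the 237 and a threshold of 0.05.

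let-7c and let-7a were the most counted members in every library. let-7c had 13166 ± 2367 CPM in normal glands and 14226 ± 2082 CPM in tumors (SD, n = 12 each), and let-7a had 11066 ± 1569 and 7112 ± 525 CPM. Ordered by mean count in normal glands, let-7i, let-7g, let-7f, let-7b, let-7d and let-7e followed. All members have the same length, but how evenly each sequence was captured was not measured, so the order is one of counts. Neighbours in this order held it in 12 of 12 normal libraries except let-7i above let-7g (6 of 12), let-7b above let-7d (9 of 12) and let-7d above let-7e (10 of 12). In tumors let-7g stood above let-7i in 11 of 12 libraries, and let-7i stood above let-7f in 6 of 12. Among all miRNAs of a library, let-7c ranked between 10 and 20, let-7a between 12 and 27, and let-7e, the least counted member, between 46 and 69.

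**Figure D1:**
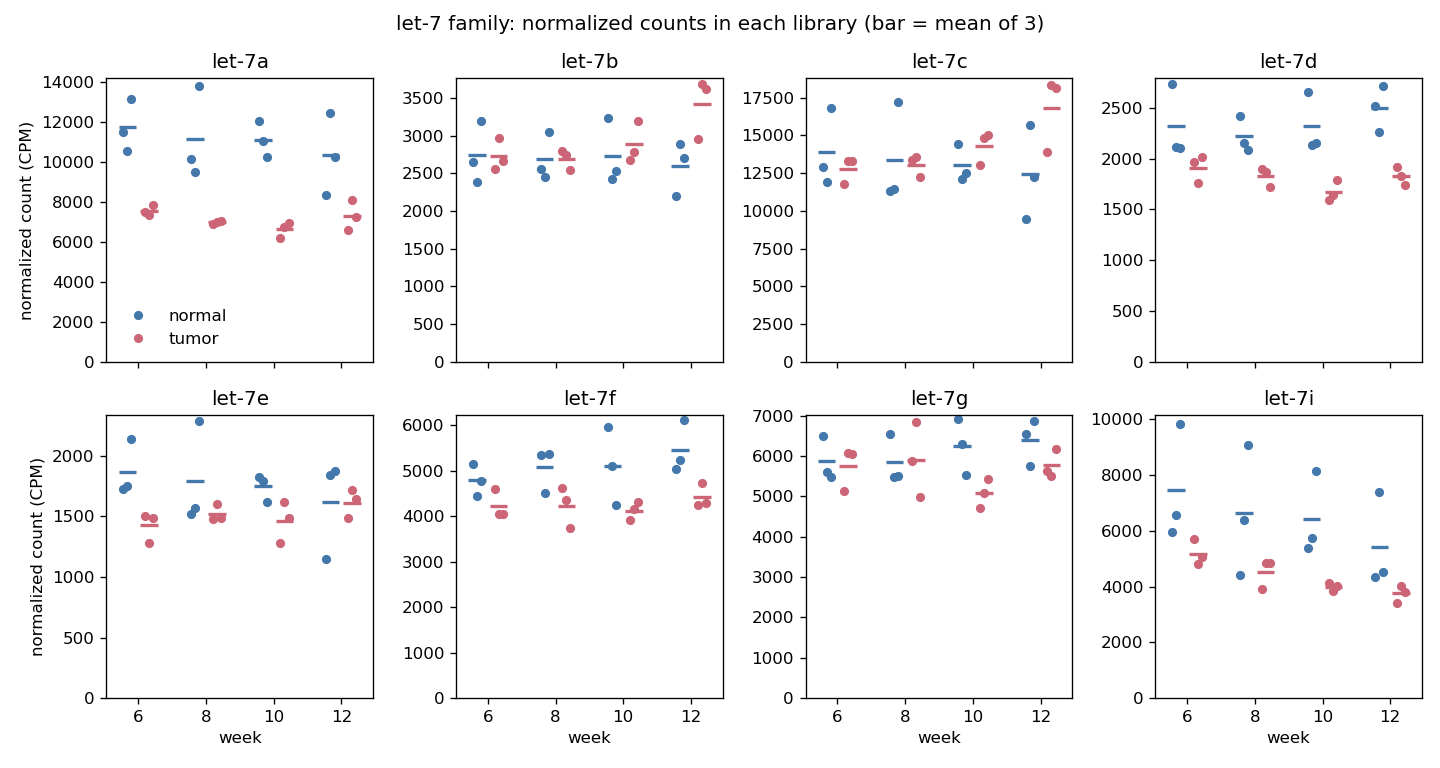
Normalized count (CPM, from 0) of each let-7 member at weeks 6, 8, 10 and 12, with 1 point per library, normal in blue and tumor in red, and a bar at the mean of the 3 libraries of a group. For let-7a and let-7d the tumor libraries sit below the normal libraries at all 4 time points, while for let-7b and let-7c the points overlap at weeks 6, 8 and 10.

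Over the 4 time points together, 5 of the 8 members were under-expressed in tumor and none was over-expressed in the main test. The under-expressed members were let-7a, let-7i, let-7d, let-7f and let-7e. Across all 237 miRNAs tested in the same way, 46.8% were under-expressed and 38.8% over-expressed, so that the share of let-7 members called lower, 5 of 8, is not far from the background. The median log2 fold change, tumor over normal, was -0.24 for the members and -0.15 for all tested miRNAs. None of the members moved as far as 1 log2 unit.

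let-7a had the largest difference of the 8 in size. At week 6 its normal libraries had 11466, 10542 and 13139 CPM, and its tumor libraries 7503, 7319 and 7839.7 CPM. At week 8 the values were 10123, 9470.2 and 13778 CPM against 6888, 6981 and 7034 CPM. In each of these weeks the lowest normal library lay above the highest tumor library, and the 3 week 8 tumors were almost equal. At week 10 let-7a had 12009.5, 11016 and 10242 CPM in normal glands and 6209, 6746 and 6928 CPM in tumors. At week 12 it had 8349, 12441 and 10217.5 CPM against 6583, 8088 and 7229 CPM. The groups did not overlap at any time point, and tumor was lower in 36 of the 36 tumor-normal pairs within weeks.

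The log2 fold change of let-7a over the 4 weeks was -0.64 (standard error 0.077, adjusted p = 3.40e-07, edgeR quasi-likelihood test). At weeks 6, 8, 10 and 12 it was -0.63, -0.71, -0.76 and -0.51 with standard errors of 0.14, 0.21, 0.12 and 0.21. The same edgeR test gave adjusted p of 0.00875, 0.0362, 0.00220 and 0.0786, so that the week 12 value alone missed the threshold. Without normal replicate 1 it was -0.64 and passed (edgeR adjusted p = 0.0473). The week 6 call was lost without tumor replicate 2 (-0.55, edgeR adjusted p = 0.0709). The week 8 call was lost in 5 of the 6 fits with 1 library left out, all but that without normal replicate 2. Log2 fold changes lay between -0.72 and -0.49 in these 5 fits and between -0.85 and -0.49 over all 6. The 4-week value was also past the threshold within each sequencing lane, at -0.59 (edgeR adjusted p = 0.00192) in lane 1 and -0.76 (edgeR adjusted p = 0.00232) in lane 2.

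let-7d and let-7f are encoded in the chromosome 13 cluster that holds let-7a-1. let-7d at week 6 had 2732, 2110.5 and 2108 CPM in normal glands and 1966, 1758 and 2013 CPM in tumors. At week 8 it had 2420.3, 2154 and 2082 CPM against 1894, 1866 and 1723 CPM. At week 10 it had 2655, 2138 and 2156 CPM against 1589, 1643 and 1789 CPM. Tumor was below normal in each of these weeks without overlap, by a smaller margin than for let-7a. At week 12 the values were 2514, 2258 and 2718 CPM against 1916, 1829 and 1739 CPM, again without overlap.

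The 4-week log2 fold change of let-7d was -0.37 (standard error 0.066, edgeR adjusted p = 4.48e-05). Within lanes it was -0.45 (edgeR adjusted p = 0.0120) in lane 1 and -0.33 (edgeR adjusted p = 0.0752) in lane 2. By week let-7d passed the threshold at week 10 alone (-0.48, standard error 0.14, edgeR adjusted p = 0.0216), and this call was lost without tumor replicate 1 (-0.45), tumor replicate 2 (-0.47) or normal replicate 1 (-0.37). At weeks 6, 8 and 12 the values were -0.27, -0.32 and -0.46, with edgeR adjusted p of 0.180, 0.230 and 0.0781, and the last passed without normal replicate 2 (-0.57, adjusted p = 0.0262).

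In normal glands let-7f had between 4245 and 6120.5 CPM (median 5129), and in tumors between 3733 and 4737 CPM (median 4278). Tumor was lower in 33 of 36 within-week pairs, and the groups were fully separated at 1 of the 4 time points. Its 4-week log2 fold change was -0.26 (standard error 0.067, edgeR adjusted p = 0.00146). Within lanes the values were -0.29 and -0.35, and neither passed the threshold in edgeR (adjusted p = 0.0538 and 0.0677). The 3 members of this cluster, summed, had 18514 ± 1797 CPM in normal glands and 13179 ± 784 CPM in tumors (SD, n = 12). Reads of let-7a-2 and let-7f-2 cannot be told from those of this cluster, and how far the sum includes them is not known. let-7f-2 lies on chromosome X, and all 55 miRNAs found only there are listed at 0.

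let-7i, whose gene stands by itself, was the most variable member among normal glands. At week 6 it had 5972, 6573 and 9854 CPM in normal libraries and 5700.5, 4813 and 5048 CPM in tumor libraries. At week 8 the values were 4418, 6402 and 9071 CPM against 3908, 4841 and 4842 CPM. The lowest normal library of week 8 lay below 2 of the tumors, while at week 6 the groups were separated by a small gap. At week 10 let-7i had 5379.9, 5749.7 and 8136 CPM against 4146, 3856 and 4009.7 CPM. The week 12 values were 4337, 7392 and 4537 CPM against 3417, 4022 and 3821 CPM. Tumors were below normal glands in both of these weeks and lay close together, and over all weeks tumor was lower in 34 of 36 pairs.

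The 4-week log2 fold change of let-7i was -0.57 (standard error 0.12, edgeR adjusted p = 3.01e-04). Within lanes it was -0.32 (edgeR adjusted p = 0.0770) in lane 1 and -0.85 (edgeR adjusted p = 0.00343) in lane 2, and the difference between lanes was not tested. By week let-7i passed the edgeR threshold at week 10, with -0.69 (standard error 0.17, adjusted p = 0.0107). At weeks 6, 8 and 12 the values were -0.52, -0.57 and -0.53 with adjusted p of 0.0606, 0.122 and 0.0931. Without normal replicate 1 the week 6 value was -0.66 and passed the threshold (edgeR adjusted p = 0.0290).

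The remaining called member, let-7e, ranged from 1149 to 2285 CPM with a median of 1771 in normal glands and from 1284 to 1717 CPM with a median of 1487 in tumors. Tumor was lower in 31 of 36 within-week pairs. The 4-week log2 fold change was -0.22 (standard error 0.091, edgeR adjusted p = 0.0285), a call that was lost when normal replicate 3 of every week was left out (-0.16, adjusted p = 0.116) and when at least 10 counts were required in every library (-0.16, adjusted p = 0.0837). Within lanes it was -0.11 (edgeR adjusted p = 0.355) in lane 1 and -0.40 (edgeR adjusted p = 0.0288) in lane 2.

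let-7c and let-7b, the pair encoded on chromosome 15, had the only positive 4-week values. let-7c at week 6 had 12892, 11879 and 16816 CPM in normal libraries and 11761, 13266 and 13286 CPM in tumor libraries. At week 8 it had 11329, 11474 and 17214 CPM against 13351, 13533 and 12235 CPM. At week 10 it had 14431, 12129.5 and 12489 CPM against 13054, 14849 and 15029 CPM. The groups overlapped in all of these weeks, with normal replicate 3 the highest library at weeks 6 and 8. At week 12 the values were 9467, 15659 and 12215 CPM in normal glands and 13887, 18323 and 18138 CPM in tumors, with 1 tumor below the highest normal gland.

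The 4-week log2 fold change of let-7c was 0.10 (standard error 0.095, edgeR adjusted p = 0.302), and it was -0.06 with upper quartile factors and -0.08 within lane 2, so its direction is not settled. The weekly values were -0.11, -0.06, 0.13 and 0.43 at weeks 6, 8, 10 and 12, and edgeR gave adjusted p of 0.572, 0.814, 0.396 and 0.176. let-7b had a 4-week value of 0.12 (standard error 0.076, edgeR adjusted p = 0.152). It was -0.04 with upper quartile factors, and with at least 10 counts required in every library it was 0.18 and called over-expressed (edgeR adjusted p = 0.0266). At week 12 the let-7b libraries did not overlap, with 2956, 3683 and 3612 CPM in tumors above 2201, 2892 and 2707 CPM in normal glands. let-7b and let-7c summed to 15856 ± 2666 CPM in normal glands and 17157 ± 2449 CPM in tumors (SD, n = 12).

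let-7g ranged from 5487 to 6917 CPM with a median of 6021 in normal glands and from 4699 to 6849 CPM with a median of 5570.3 in tumors. Its 4-week log2 fold change was -0.12 (standard error 0.069, edgeR adjusted p = 0.119) and tumor was lower in 26 of 36 pairs. The value was negative under every scaling tried, and TMM was the only scaling with which it missed the threshold when all libraries and the same filter were used. It passed with DESeq2 size factors (-0.20, edgeR adjusted p = 0.0458), library sizes only (-0.16, adjusted p = 0.0226), upper quartile factors (-0.27, adjusted p = 0.00110) and TMM factors computed without let-7 (-0.18, adjusted p = 0.0221). It also passed with no filter (-0.19, edgeR adjusted p = 0.0404), in DESeq2's Wald test (-0.20, adjusted p = 0.0488), and without tumor replicate 2 (-0.28) or tumor replicate 3 (-0.25) of every week.

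**Figure D2:**
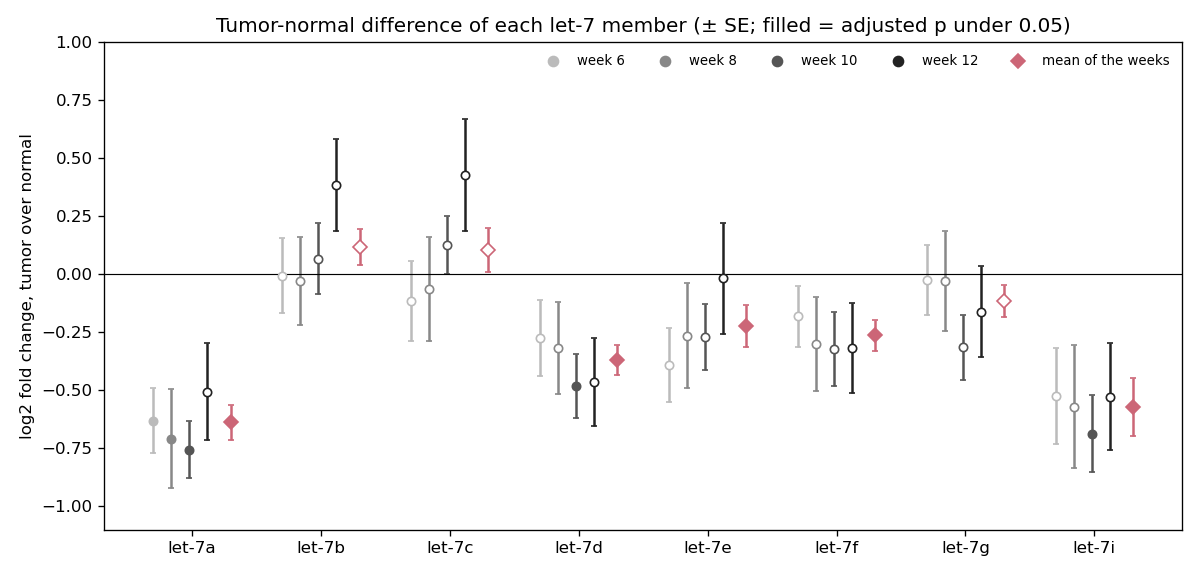
Log2 fold change, tumor over normal, of each let-7 member at each week (circles, light to dark) and over the 4 weeks (diamonds), with bars for 1 standard error and filled symbols where the edgeR adjusted p was under 0.05. Over the 4 weeks let-7a (-0.64), let-7i (-0.57), let-7d (-0.37), let-7f (-0.26) and let-7e (-0.22) are filled, and let-7b and let-7c lie just above 0.

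By time point, the members that passed the threshold were few. In hyperplasia let-7a alone of the 8 was under-expressed, where 29.5% of all tested miRNAs were. In adenoma it was again let-7a alone, against 13.5% of all. In early carcinoma let-7a, let-7d and let-7i were under-expressed, 3 of 8, against 27.4% of all. In late carcinoma no member passed in either direction, while 50.6% of all tested miRNAs did, and 2 members had an unadjusted p under 0.05 in edgeR. DESeq2's Wald test also called 0 members there. When edgeR was fitted to all 24 libraries together, 3 members passed at week 12, let-7a (-0.50, adjusted p = 0.00959) and let-7d (-0.45, adjusted p = 0.00681) as lower and let-7b (0.39, adjusted p = 0.0336) as higher. The weekly edgeR tests called no member over-expressed.

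Separation of the libraries, a description without a test, held for more members than passed the threshold in each week. Tumor libraries were all below normal libraries for 4, 2, 5 and 4 members in the order of the weeks. This was so for 34.6%, 19.8%, 31.6% and 28.7% of all tested miRNAs. let-7a and let-7d were separated at 4 time points, let-7i at 3, let-7e at 2, let-7f and let-7g at 1 each, and let-7b and let-7c at none in this direction. The share of all tested miRNAs separated at several time points was not counted.

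Whether the tumor-normal difference varied between the weeks was tested with interaction contrasts over all 24 libraries. No member passed (edgeR adjusted p between 0.938 and 0.975), none had an unadjusted p under 0.05, and the share of all tested miRNAs called was 0.0%. The change of the difference from week 6 to week 12 was not called for any member either, with the lowest edgeR adjusted p at 0.391 and 0.422% of all miRNAs called. A member past the threshold at week 10 and not at week 12 is therefore not shown to differ between these weeks. The self-test on simulated counts recovered 16.7% to 30% of changes of 1 log2 unit in a weekly comparison. Its changed miRNAs were drawn from all 237, low counts included, so this share does not give the recovery for the members. No change of the difference between weeks was simulated. The tumor-normal differences of the members were smaller than 1 unit.

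Age was examined in the glands without the transgene. Between weeks 6 and 12 of normal glands no member passed the edgeR test (lowest adjusted p = 0.208), where 21.1% of all miRNAs did. Without normal replicate 2, let-7i was lower at week 12 than at week 6 (log2 fold change -0.78, edgeR adjusted p = 0.0450). Between weeks 6 and 12 of tumors no member passed (lowest edgeR adjusted p = 0.183), where 7.59% of all miRNAs did, and 1 member had an unadjusted p under 0.05.

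The make-up of the family differed between tumors and normal glands in a way that needs no scaling. let-7a and let-7c differ by 1 base, and the ratio of their counts within a library, a pair chosen after the values were seen, is given as a description. It lay between 0.781 and 0.908 in the 12 normal libraries and between 0.399 and 0.638 in the 12 tumor libraries. The lowest normal library was thus above the highest tumor library across all weeks. In lane 1 the ratio was 0.825 to 0.894 in normal glands against 0.474 to 0.638 in tumors, and in lane 2 it was 0.781 to 0.908 against 0.399 to 0.590.

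By time point the normal ratio had means of 0.853, 0.840, 0.854 and 0.838 at weeks 6, 8, 10 and 12. In tumors the means were 0.593 ± 0.043, 0.536 ± 0.034, 0.464 ± 0.011 and 0.438 ± 0.038 (SD, n = 3 each). The hyperplasia libraries had ratios of 0.638, 0.552 and 0.590 and the adenoma libraries 0.516, 0.516 and 0.575. The early carcinoma libraries had 0.476, 0.454 and 0.461 and the late carcinoma libraries 0.474, 0.441 and 0.399. All tumors of weeks 10 and 12 were thus below all tumors of weeks 6 and 8, while the libraries of neighbouring weeks 6 and 8, and of weeks 10 and 12, overlapped. This order was not tested, and how many other pairs of members show one was not counted. By the study's account the tissue of weeks 6 and 8 still held normal gland cells, and their part was not tested. let-7a and let-7c together had 24232 ± 3907 CPM in normal glands and 21338 ± 2307 CPM in tumors (SD, n = 12).

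**Figure D3:**
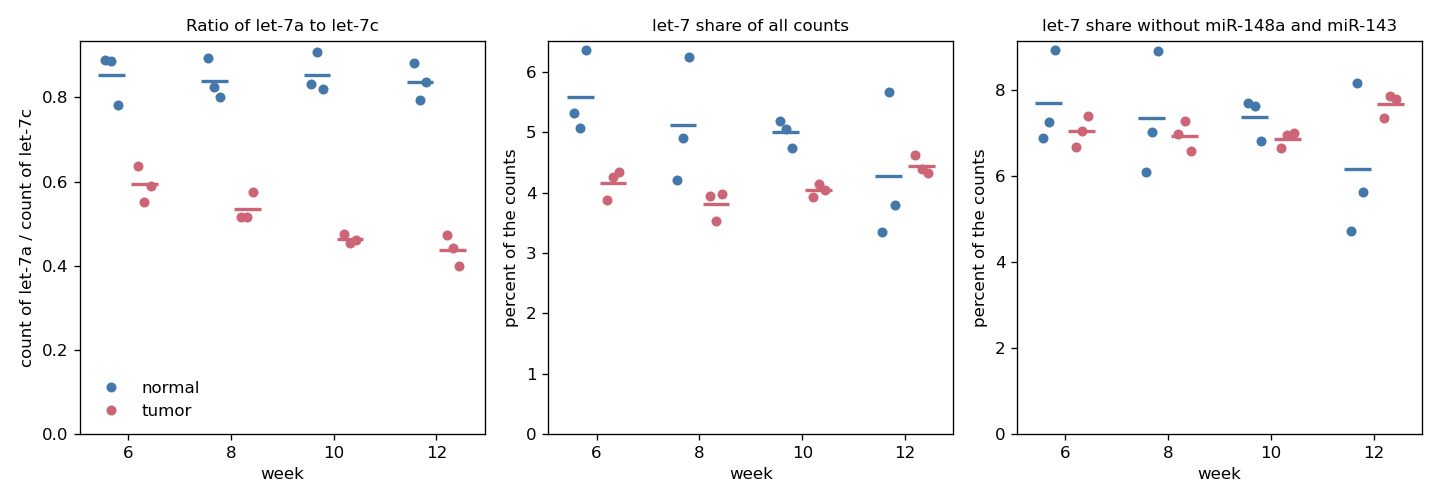
Count of let-7a divided by count of let-7c (left), percent of all counts of a library that fall on the 8 members (middle), and the same percent after removing miR-148a and miR-143 (right), with 1 point per library, normal in blue, tumor in red, bars at group means and axes from 0. The ratio separates tumor (0.399 to 0.638) from normal (0.781 to 0.908), whereas the shares on the right overlap.

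As a share of the let-7 counts, let-7a took 22.7% (21.1% to 23.6%) in normal libraries and 17.02% (15.5% to 18.5%) in tumor libraries, with no overlap. let-7b took 5.53% (5.19% to 6.16%) of the let-7 counts in normal glands and 6.99% (6.27% to 7.74%) in tumors, also without overlap. let-7c took 26.9% and 33.9% and let-7i 13.2% and 10.5%, and the ranges of these members overlapped. let-7d, let-7e, let-7f and let-7g differed by less than 1 percentage point. These shares sum to a whole, so that a lower share of one member raises the others.

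The family as a whole took 4.996% ± 0.90 of all counts in normal libraries and 4.12% ± 0.29 in tumor libraries (SD, n = 12 each). The range was 3.35% to 6.36% in normal glands and 3.53% to 4.62% in tumors. Part of every library went to a few highly counted miRNAs. miR-148a took 9.87% of the counts in normal glands and 33.7% in tumors, while miR-143 took 20.1% and 8.43%. With miR-148a and miR-143 left out, the let-7 share was 7.14% ± 1.25 in normal glands and 7.12% ± 0.42 in tumors. miR-10b, lower in tumors, was counted above miR-148a in every normal library but was not left out. These shares therefore hold for this choice of miRNAs only. On the TMM scale the 8 members summed to 48701 ± 5699 CPM in normal glands and 41834 ± 2969 CPM in tumors. The size of any difference in the summed family therefore rests on the scale chosen, unlike the ratio of let-7a to let-7c.

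The partners encoded beside let-7 genes had differences of their own. miR-99a, miR-99b and miR-100 share a seed of their own, as do miR-125a and miR-125b, and these sequences are shown, seed in capitals, because their genes lie beside those of let-7a-2, let-7c-1 and let-7e.
miR-100: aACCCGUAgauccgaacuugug
miR-99a: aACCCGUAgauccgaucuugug
miR-99b: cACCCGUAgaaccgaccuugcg
miR-125b: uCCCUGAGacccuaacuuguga
miR-125a: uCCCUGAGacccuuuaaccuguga

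Beside let-7a-2 on chromosome 9, miR-100 had 3721 ± 496 CPM in normal glands and 1700 ± 272 CPM in tumors (SD, n = 12), and its 4-week log2 fold change was -1.13 (standard error 0.098, edgeR adjusted p = 3.49e-09). miR-125b, made from chromosomes 9 and 16, had 27126 ± 7686 and 11990 ± 2281 CPM and a value of -1.16 (standard error 0.13, edgeR adjusted p = 8.72e-08). miR-99a, beside let-7c-1 on chromosome 16, had 7849 ± 1415 and 4216 ± 492 CPM and a value of -0.89 (standard error 0.089, edgeR adjusted p = 2.20e-08). These 3 partners were under-expressed at each of the 4 time points, and the share of all tested miRNAs for which this held was not counted. let-7a, which is also made from chromosome 13, was under-expressed at weeks 6, 8 and 10. let-7c, which is also made from chromosome 15, was called at none.

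On chromosome 17 the order was turned around. miR-99b was over-expressed in tumor, with a 4-week log2 fold change of 0.25 (standard error 0.080, edgeR adjusted p = 0.00645). It had 7169 ± 1094 CPM in normal glands and 8550 ± 923 CPM in tumors (SD, n = 12). let-7e, 94 bases away, was under-expressed (-0.22). miR-125a had a mean of 9090 CPM in both tissues and a value of 0.02 (standard error 0.14, edgeR adjusted p = 0.882). No weekly test called miR-99b or miR-125a. Of the 6 partners fixed for this comparison, 3 of the 5 tested were under-expressed, 1 was over-expressed, and miR-98 is listed at 0, beside 46.8% and 38.8% of all tested miRNAs, so that these counts are near the background. A difference between a member and its partner was not tested.

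**Figure D4:**
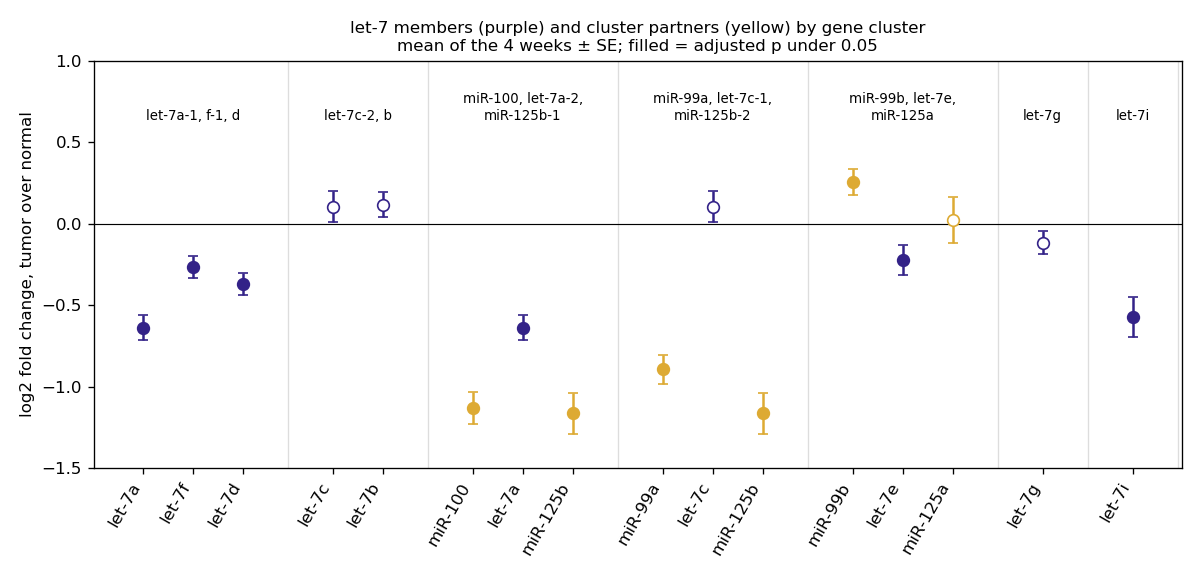
Log2 fold change over the 4 weeks, tumor over normal, with bars for 1 standard error, for let-7 members (purple) and their cluster partners (yellow), arranged by gene cluster and filled where the edgeR adjusted p was under 0.05. A mature miRNA made from more than 1 cluster is drawn in each. miR-100 (-1.13), miR-125b (-1.16) and miR-99a (-0.89) lie below every let-7 member, and miR-99b (0.25) lies above.

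Between replicates the members did not vary together as 1 block. Over the 24 deviations of log2 CPM from the group means, Pearson's r between members ranged from -0.62 to 0.93 with a median of 0.43 over the 28 pairs. let-7a went with let-7c (0.93) and let-7e (0.87), and let-7b with let-7c (0.89). let-7i went against let-7g and let-7d, both at -0.62. The libraries share the scale factors, and members 1 base apart could share reads, so these values are given as a description.

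The ratio of let-7i to let-7g shows the same spread among normal glands, from 0.660 to 1.80, against 0.608 to 1.11 in tumors. In normal libraries its mean was 0.895 ± 0.23 in lane 1 and 1.30 ± 0.44 in lane 2, while in tumors it was 0.794 ± 0.18 and 0.775 ± 0.12 (SD, n = 6 each). With lane as a covariate, let-7i at week 6 was -0.49 and passed the threshold (edgeR adjusted p = 0.0478). Whether the tumor-normal difference of let-7i depends on the lane was not tested.

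Outside the family, the miRNAs whose log2 CPM followed the mean of the 8 members most closely over the 24 libraries were miR-34c (r = 0.79), miR-34b (0.78) and miR-132 (0.78). Over the 24 deviations from group means they were miR-34c (0.65), miR-34a (0.63) and miR-132 (0.59). The libraries share their scale and the tumor-normal contrast, and the values are a description.

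Markers of the cell types in the gland moved between tumor and normal in the same libraries. Of 7 epithelial miRNAs, the miR-200 family with miR-203 and miR-205, 5 were over-expressed and 1 under-expressed over the 4 weeks, and their sum ranged from 5689 to 20148 CPM in normal glands and from 19802 to 30351 CPM in tumors. All 5 fibroblast and smooth muscle markers were under-expressed, with sums of 158619 to 276068 and 70032 to 136943 CPM. miR-126 of endothelium was under-expressed too, at 20498 to 37464 and 6568 to 18254 CPM. Epithelial, stromal and vessel markers were thus counted in both tissues.

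Blood, muscle and fat markers also differed. All 3 red blood cell markers were under-expressed (7798 to 34558 against 2060 to 13679 CPM), and so were the 3 tested skeletal muscle markers of 4 (89.0 to 89335 against 39.9 to 18075 CPM). Of 3 tested leukocyte markers 1 was under-expressed (1681 to 3241 against 1198 to 1868 CPM), and the fourth, miR-223 on chromosome X, is listed at 0. Of 3 fat markers 2 were under-expressed (4662 to 25146 against 3046 to 15080 CPM). The part of these cell types in the let-7 differences was not tested.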

How the data were processed

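Small RNA libraries of 12 tumors and 12 normal mammary glands, 3 per group, were used. The authors trimmed adaptors, aligned short reads with Bowtie, and deposited raw counts of reads overlapping each miRBase miRNA. The paper names mm10 and the labels mm9. Groups, weeks, replicates and lanes came from the labels.

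The deposited counts of 510 miRNAs were filtered with filterByExpr over the 8 groups (237 kept) and tested with edgeR 4.0.16 (R 4.3.3; TMM, quasi-likelihood, Benjamini-Hochberg), within each week, or over all 24 libraries for 4-week and interaction contrasts. CPM used TMM factors, and correlations log2 CPM with a prior count of 2. Members and lists were chosen with earlier results of these data known. Named were the 8 members, miRNAs with their seed, cluster partners, and the 3 miRNAs most correlated with the members' mean over libraries and over deviations. let-7a with let-7c and let-7i with let-7g were paired after seeing values.

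Alternatives were DESeq2 1.42.0 size factors and Wald test, library sizes, upper quartile factors, TMM without let-7, other filters, a joint fit, lane, replicate block, and omitted replicates. On simulated data with 60 changed of 237 miRNAs, weekly fits recovered 80% to 96.7% of changes of 2 log2 units, and the 4-week fit 93.3% of changes of 1. False calls made up 10%, 2.70%, 3.33% and 5.13% of the calls at weeks 6, 8, 10 and 12, and 3.33% in the 4-week fit. Floors of 3 counts were 0.763 to 2.91 CPM. They cover counting error only. Each library is 1 mouse. Figures used Python 3.11.15 and matplotlib 3.10.9.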

Additional observations from a re-analysis of the deposited data

How the results depend on the processing

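Over 4 weeks, let-7a, let-7d, let-7f and let-7i remained past the edgeR threshold under every scaling and filter tried. The main counts of members called were 1, 1, 3 and 0 at weeks 6, 8, 10 and 12 and 5 over the 4 weeks. At week 6 the count was 3 with library sizes, 5 with upper quartile factors and 2 with lane as a covariate. In lane 2 alone it was 0 at weeks 6 and 8, and it was 0 at week 8 with no filter. At week 10 it was 6 with upper quartile factors and 1 in lane 1. At week 12 it was 1 with upper quartile factors, 2 with TMM factors computed without let-7, 1 in lane 2, and 3 in the fit of all 24 libraries, where let-7b was higher and let-7a and let-7d lower. Over the 4 weeks it was 2 in lane 1 and 3 in lane 2, and it was 6, with let-7g added, with DESeq2 size factors, library sizes, upper quartile factors, TMM without let-7, no filter and DESeq2's Wald test. At least 10 counts in every library gave 5, with let-7b called higher and let-7e lost. Fits by lane have fewer libraries. At weeks 6 and 8 lane 2, and at weeks 10 and 12 lane 1, hold 1 tumor and 1 normal library, each assumed to vary like the other groups, so that a call lost there says nothing about stability. let-7a was -0.71 and -1.03 in lane 2 at weeks 6 and 8. With a replicate left out, the lowest and highest counts were 0 and 2 (week 6), 0 and 1 (week 8), 2 and 5 (week 10), 0 and 1 (week 12), 4 and 6 (over the 4 weeks), and 0 and 1 (weeks 6 and 12 of normal glands).

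Among the values printed for single members, those that changed sign were of let-7b and let-7c, none of them past the threshold in the main test. In lane 1 let-7c was 0.015 at week 6 and 0.24 at week 8, and it was -0.033 with upper quartile factors and -0.14 in lane 1 at week 10. With a replicate left out it lay between -0.21 and 0.045 (week 6), -0.19 and 0.19 (week 8), and -0.060 and 0.16 (over the 4 weeks). The 4-week value of let-7c was -0.058 with upper quartile factors and -0.075 in lane 2. That of let-7b was -0.041 and -0.0031, and -0.035 to 0.13 with a replicate left out. Upper quartile factors moved the median of all tested miRNAs over the 4 weeks by -0.15. The cause of these changes was not tested. Of called member values over all alternatives, 153 kept the call, 22 lost it and 0 changed sign, while 105 of those not called changed sign, among them let-7g at weeks 6, 8 and 12 and let-7e at week 12.

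Without miR-148a and miR-143, the let-7 share of counts at weeks 6, 8, 10 and 12 was 7.68%, 7.34%, 7.37% and 6.17% in normal glands and 7.03%, 6.93%, 6.86% and 7.66% in tumors.

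No source says what a replicate number stands for, such as a litter or day. A tumor and a normal library with the same week and number also share a lane. Deviations from group means in such pairs correlated between 0.031 and 0.82 (mean 0.41), and 10 of the 12 pairs were over 0.1. Pairs with different numbers had a mean of -0.18. Deviations cancel within a group, so these means are not independent. The number thus went with shared deviations, and what it marks was not tested. The main tests did not use it. With the replicate block, 1, 1, 3 and 0 members were called at weeks 6, 8, 10 and 12 and 5 over the 4 weeks, and no member's call changed. The lower depth of tumor libraries does not limit the members, which had at least 1362 counts everywhere. The 3 mice per group do.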
